A study of Mus musculus with 12 samples.

Results

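The 616 sites described here are stretches of the mouse genome at which CTCF was listed as bound in wild-type brain, heart and lung, and at which no peak was listed in any of the same organs of Ctcf homozygous mutants. They were chosen by the peak lists themselves: the regions of 6 lists were merged wherever they shared at least 1 bp, and a site was taken when it carried all 3 wild-type lists and none of the 3 mutant lists. They make up 1.10% of the 56248 merged sites and 3.15% of the 19565 sites bound in all wild-type organs. The absence of a listed mutant peak, called loss below, is therefore the rule and not a result, and wild-type peak strength, which belongs to the same lists, is given as a description.

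The study compared CTCF chromatin immunoprecipitation between genotypes in brain, heart and lung. The embryos were taken at E18.5, late in gestation, on a C57BL/6 background that the study's methods give as C57BL/6 N. Wild-type embryos were set against embryos homozygous for Ctcf R567W, a substitution introduced in the germline by CRISPR/Cas9 and so carried by every cell of each organ. The labels gave 12 samples, of which 6 were CTCF libraries with a peak list and 6 were inputs, with 1 CTCF library per organ and genotype. No difference between genotypes has a replicate check, and the labels do not say how many embryos each library held. Peak lists hold no expression, so the organs could not be checked against marker genes.

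For brain, 36034 wild-type and 38390 mutant regions were listed; the heart lists had 21059 and 11515 and the lung lists 44386 and 32498. Relative depth, recovered from the peak caller's own values, ranged from 7.14 to 9.27 reads per kb over the 6 libraries. The mutant heart list was the shortest. Of the 1257 sites with all wild-type lists and exactly 1 mutant list, 656 kept the brain peak, 594 the lung peak and 7 the heart peak.

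CTCF is a zinc-finger protein that organises chromosome loops together with cohesin and insulates genes from neighbouring enhancers. Its central fingers read a core motif shared by nearly all strong sites. At a minority of sites the last fingers also contact an upstream motif that lies on the 5′ side of the core, and R567 lies in the last of these fingers. The question addressed was which sequences and positions mark the sites at which the mutant protein was listed nowhere.

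The first 8 sequences show the strongest lost sites that carried both parts of the motif. Each is 49 bases of GRCm38, 5′ to 3′ in the direction of the core motif, and each is named by the gene of the nearest transcription start site. Capitals mark the upstream match to TGCAGTNCC, with at most 1 mismatch, and the 19 bases scored by the core matrix.
Gm13345, in an intron of 4921504E06Rik, chr2:19519960-19520008, minus strand: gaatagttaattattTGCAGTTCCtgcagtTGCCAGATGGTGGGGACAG
Gm42196, in an intron of Pld1, chr3:28107934-28107982, minus strand: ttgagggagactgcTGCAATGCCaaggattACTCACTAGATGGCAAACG
A930002H24Rik, intergenic, chr17:63803753-63803801, plus strand: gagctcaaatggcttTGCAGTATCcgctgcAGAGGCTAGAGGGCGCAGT
Polr2m, intergenic, chr9:71447791-71447839, minus strand: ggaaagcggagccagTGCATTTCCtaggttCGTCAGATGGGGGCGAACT
Mir3066, in an intron of Nol10, chr12:17367125-17367173, plus strand: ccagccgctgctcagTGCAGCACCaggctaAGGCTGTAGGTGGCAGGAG
Gm12146, intronic, chr11:43264030-43264078, minus strand: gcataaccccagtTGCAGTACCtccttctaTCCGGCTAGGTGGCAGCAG
Gm25111, intergenic, chr6:36691624-36691672, plus strand: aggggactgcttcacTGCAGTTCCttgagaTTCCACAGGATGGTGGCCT
Gm13323, intergenic, chr2:17842151-17842199, minus strand: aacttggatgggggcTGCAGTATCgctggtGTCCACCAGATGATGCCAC

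Read side by side, 6 of these 8 sites had exactly 6 bases between the upstream match and the core, Gm42196 had 7 and Gm12146 had 8. The match was complete at Gm13345, Gm12146 and Gm25111. Their core scores, in log2 units over background, ranged from 6.996 to 12.4, whereas a score of 6.71 was enough for a call.

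The strongest lost sites without an upstream match of at most 2 mismatches are shown next, with the core alone in capitals.
Map3k1, intronic, chr13:111771435-111771483, minus strand: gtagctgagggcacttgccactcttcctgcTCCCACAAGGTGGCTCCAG
Gm14546, intergenic, chr6:34277973-34278021, minus strand: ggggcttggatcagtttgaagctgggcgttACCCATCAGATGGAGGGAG
Gm47986, in an intron of Ddx10, chr9:53144391-53144439, minus strand: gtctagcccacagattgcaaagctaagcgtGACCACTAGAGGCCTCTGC

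For contrast, strong sites that kept a peak in all 6 lists and met the same upstream criterion are given with the same marking.
Atp5g2, at the promoter, chr15:102671199-102671247, minus strand: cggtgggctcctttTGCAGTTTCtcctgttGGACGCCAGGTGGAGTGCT
Srrm3, intergenic, chr5:135806751-135806799, minus strand: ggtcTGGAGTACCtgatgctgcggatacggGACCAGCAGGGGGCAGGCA

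In these kept sites the gap was 7 bases at Atp5g2 and 17 at Srrm3, so the Srrm3 match did not stand where those of the lost sites stood. A further kept site of this choice, nearest Camkmt and not shown, had a gap of 1 and a core score of 16.3. Over all kept sites, however, 83.4% of such matches stood at 6 or 7 bases. The Srrm3 core scored 20.9, above each of the 8 lost cores with an upstream match, and the Atp5g2 core scored 10.7.

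The lost sites carried the upstream motif more often, and the core motif less often, than kept sites. Of 616 sites, 541 (87.8%, Wilson 95% interval 85.0 to 90.2) had a core motif within 100 bp of the brain summit, beside 96.7% of all sites with the 3 wild-type lists. Among these 541, the upstream motif with at most 2 mismatches in the 30 bases 5′ of the core was present at 243, or 44.9% (40.8 to 49.1), beside 27.3% of all such sites with a core. With at most 1 mismatch it was present at 127, or 23.5% (20.1 to 27.2), beside 9.59%. A complete match stood at 38 lost sites, or 7.02%, beside 1.303% of kept cores, 3.75% of those lost in heart only and 5.47% of those with another partial loss. The difference from the last was 1.55 points (−0.793 to 4.27), an interval that included 0.

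The 10442 sites that kept a peak in every organ had the upstream motif at 23.3% of their 10284 cores with at most 2 mismatches and at 6.60% with at most 1. The differences from the lost sites were 21.6 percentage points (Newcombe 95% interval 17.4 to 25.9) and 16.9 points (13.5 to 20.7). Intervals here and below cover counting error among sites only, not variation between embryos. The remaining classes lay in between, at 29.9% for the 6862 core-bearing sites lost in heart only and 38.6% for the 1224 with another partial loss, and the lost sites exceeded these by 15.03 (10.7 to 19.4) and 6.27 points (1.297 to 11.3).

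A mirrored window on the 3′ side of the core served as background for the same letters. There, at most 2 mismatches were met at 14.97% of lost and 12.9% of kept cores, a difference of 2.11 points with an interval from −0.730 to 5.42. At most 1 mismatch was met at 1.48% and 1.53%. The excess of this consensus in lost sites thus stood on the 5′ side of the core.

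**Figure D1:**
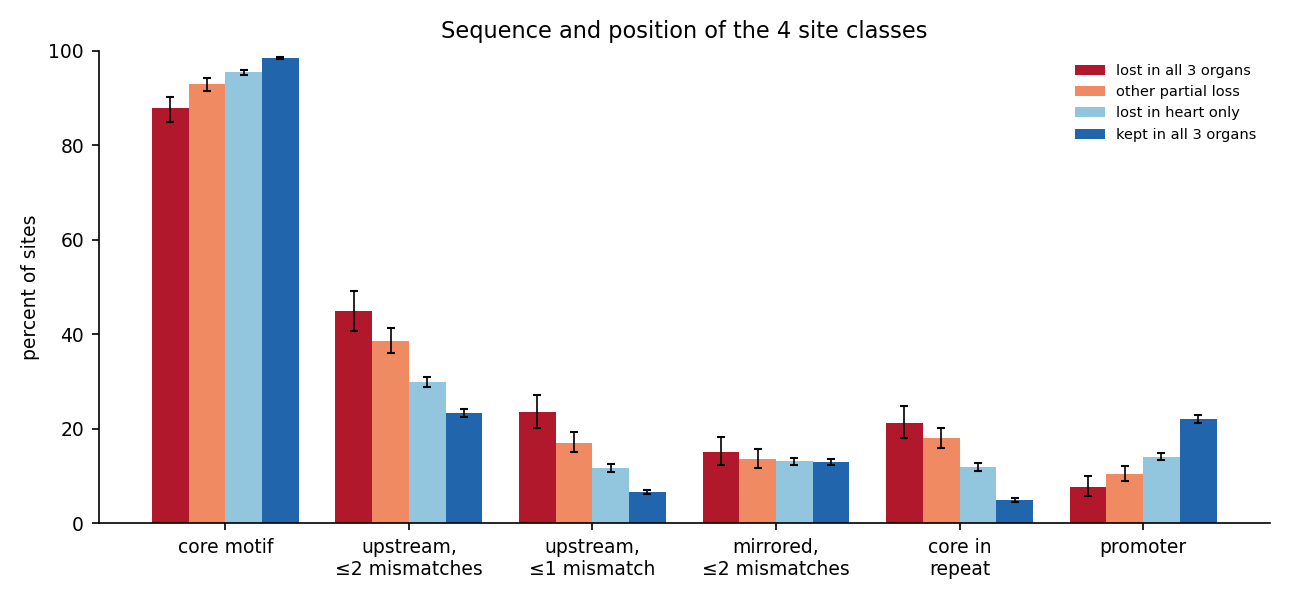
Percent of sites (vertical axis) with each sequence or position feature (horizontal axis) in 4 classes of sites with all 3 wild-type lists; bars are shares, over all sites for core and promoter and over sites with a core otherwise, and whiskers are Wilson 95% intervals. Upstream matches run from 44.9% in lost sites to 23.3% in kept sites, while the mirrored window is nearly level at 14.97% and 12.9%.

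Most upstream matches stood at the same spacing. Of the 127 lost sites with at most 1 mismatch, 120 (94.5%, 89.1 to 97.3) had 6 or 7 bases between the upstream match and the core matrix. The share was 83.4% (80.4 to 86.0) of 679 matches in kept sites, 89.5% (87.2 to 91.4) of 800 in sites lost in heart only and 91.3% (86.7 to 94.5) of 208 in those with another partial loss, and the last 2 intervals overlapped that of the lost sites. With at most 2 mismatches it was 81.5% of 243 against 60.7% of 2400. Complete matches did not follow this difference, with 94.7% of 38 in lost and 94.8% of 134 in kept sites at these gaps.

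**Figure D2:**
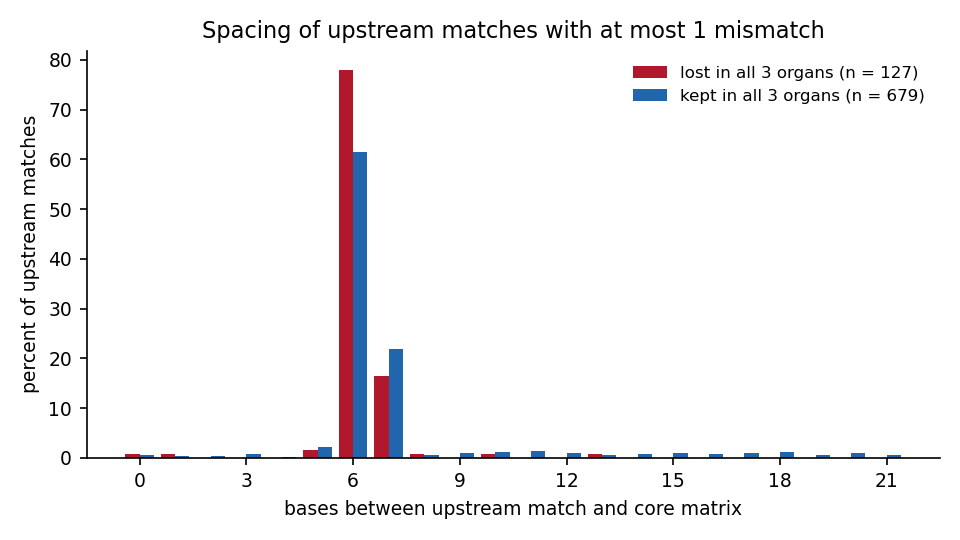
Percent of upstream matches with at most 1 mismatch (vertical axis) by the number of bases between the match and the core matrix (horizontal axis), for sites lost in all 3 organs and sites kept in all 3. Together the gaps of 6 and 7 bases hold 94.5% of the matches in lost sites and 83.4% of those in kept sites.

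Each base was also counted without reference to the consensus. Positions upstream are numbered backwards from −1 at the base next to the core. Thymine at −15 stood in 44.7% of lost and 27.7% of kept sites, guanine at −14 in 56.9% and 38.1%, and adenine at −12 in 55.3% and 35.5%. Thymine at −10 stood in 62.8% and 49.3%, and cytosine at −8 in 61.2% and 44.9%. Each difference had a Newcombe interval above 0, with lower bounds of 12.8, 14.5, 15.4, 9.29 and 12.0 points. These 5 are letters of the upstream consensus placed at a gap of 6 bases. Differences of like size stood outside it. Adenine at −1 was 12.4 points and thymine at −16 was 13.7 points more frequent in lost sites. On the 3′ side, counted from 1 at the base next to the core, guanine at 2 differed by −14.7, thymine at 2 by 13.8 and thymine at 7 by 13.2 points.

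The core differed as well. In matrix column 7, adenine was found in 32.9% of lost and 14.3% of kept sites, and cytosine in 26.1% and 44.7%. Column 10 held adenine rather than guanine in 55.8% of lost cores and in 39.0% of kept ones. Column 6 held cytosine in 43.6% and 62.1%. The median core score was 14.1 in lost and 19.2 in kept sites, with 17.5 in those lost in heart only and 15.4 in those with another partial loss, and the Hodges-Lehmann difference from kept sites was −4.66 (95% interval −5.02 to −4.29). A CpG, the dinucleotide that can be methylated, lay within 33.5% of lost and 52.2% of kept cores, a difference of −18.8 points (−22.7 to −14.6). The share was 44.6% of cores lost in heart only and 37.7% of those with another partial loss, from which the lost sites differed by −4.21 points (−8.94 to 0.670).

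The upstream motif was then examined within levels of core score. Sites with a core were ranked by score and split into quartiles, and the upstream match itself was most frequent in the weakest. In the weakest quartile, 12.2% (9.82 to 15.03) of 607 sites with an upstream match of at most 1 mismatch were lost in all 3 organs, against 5.92% (5.24 to 6.68) of 4120 without one. In the strongest quartile the shares were 3.02% (1.65 to 5.47) of 331 and 0.614% (0.422 to 0.892) of 4397. In every quartile the share was higher with the upstream match, and the intervals did not overlap. Split by decile of wild-type strength instead, the shares with and without the match were 19.8% and 8.70% in the weakest decile, 16.8% and 5.96% in the next and 14.1% and 3.53% in the third. They were 3.23% and 2.44% in decile 4, and from there on the intervals overlapped except in decile 7 (2.75% and 0.633%). In deciles 9 and 10 no site with the match was lost, of 167 and 136, which leaves room for shares up to 2.25% and 2.75% (Wilson upper bounds). By the number of mismatches alone, the share lost was 7.66% at 0, 6.75% at 1, 3.46% at 2, 2.63% at 3 and 1.59% at 4 or more.

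**Figure D3:**
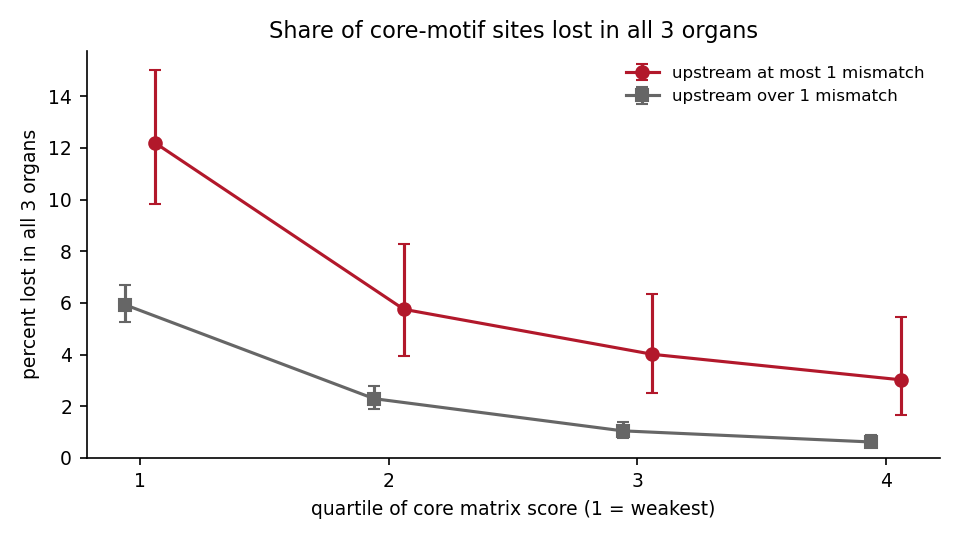
Percent of core-bearing sites lost in all 3 organs (vertical axis) by quartile of core matrix score (horizontal axis, 1 the weakest), for sites with and without an upstream match of at most 1 mismatch. Whiskers are Wilson 95% intervals; the share runs from 12.2% to 3.02% with the match and from 5.92% to 0.614% without it.

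A further 75 lost sites had no core motif call. At 20 of them (26.7%, 17.98 to 37.6) the best core match, although below the threshold, had an upstream match of at most 1 mismatch beside it, and 18 of the 20 stood at 6 or 7 bases. Among 158 kept sites without a core call, 14 (8.86%, 5.35 to 14.3) did. So did 43 of 328 lost in heart only (13.1%, 9.88 to 17.2) and 12 of 93 with another partial loss (12.9%, 7.54 to 21.2). The last of these intervals overlapped that of the lost sites. The strongest lost examples are given below with the upstream match alone in capitals, since no core was called.
Oprm1, intergenic, chr10:6694660-6694708, minus strand: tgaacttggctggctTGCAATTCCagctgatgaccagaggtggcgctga
Gm11220, intergenic, chr4:66768890-66768938, plus strand: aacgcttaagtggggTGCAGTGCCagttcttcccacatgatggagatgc
D7Ertd443e, exonic, chr7:134349029-134349077, minus strand: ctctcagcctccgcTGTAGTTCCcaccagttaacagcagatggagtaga
Tlk1, intronic, chr2:70779807-70779855, plus strand: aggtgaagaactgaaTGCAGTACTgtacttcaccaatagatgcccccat

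The Gm11220 match was complete, and this site lay 58646 bp from the start of Tlr4, the receptor for bacterial lipopolysaccharide. Its wild-type summit held 88 reads in brain, 45 in heart and 75 in lung. Of the 616 lost sites, 298 had a core alone and 243 had both. Neither a core call nor an upstream match of at most 2 mismatches beside the best core match was found at 40. For comparison, a core call was missing, with or without an upstream match, at 158 of 10442 kept sites. It was missing at 328 of 7190 sites lost in heart only and at 93 of 1317 with another partial loss.

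Wild-type binding at the lost sites had lower medians than at kept sites in each organ. The summit pileup, in reads, ranged from 8 to 129 with a median of 30 in brain. The heart values were 8 to 48 with a median of 19, and the lung values 10 to 178 with a median of 67. The kept sites had medians of 90, 36 and 159, so the ranges overlapped in each organ while the medians stood apart. Sites with another partial loss had medians of 36, 21 and 77, nearer to those of the lost sites. On the fold-enrichment scale the lost sites had brain, heart and lung medians of 10.5, 6.95 and 13.1, which placed the median site at percentile 40.9, 24.2 and 60.1 of the respective wild-type list. In lung, 152 of the 616 sites (24.7%) belonged to the 20% of highest fold enrichment in the list, against 28 in brain and 18 in heart. This lung share was higher in every other class, at 41.0% of kept sites, 30.8% of those lost in heart only and 27.2% with another partial loss. The 20% of lowest fold enrichment held 33 lost sites in lung, 91 in brain and 259 in heart. Of 1317 sites with another partial loss it held 68, 148 and 477. The lists differ in length, so percentiles are not on one scale across organs.

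Fold enrichment of the lost sites was correlated across organs, with Spearman's rank correlation over the 616 sites at 0.466 for brain and heart, 0.339 for brain and lung and 0.360 for heart and lung. Over the kept sites the values were 0.535, 0.0757 and 0.106. These are descriptions across sites of the same libraries, and sites are not independent replicates. The 3 wild-type summits of a lost site lay within 50 bp of each other at 535 of 616 sites (86.9%). Their median span was 22 bp, against 14 bp in kept sites, 19 bp in those lost in heart only and 22 bp with another partial loss.

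How many reads the mutant lists would have needed was approximated from the lowest p-value each mutant list contained, at the relative local background seen in the wild type. This listing limit had a median of 8 brain, 9 heart and 12 lung reads. After scaling for depth, wild-type pileup was a median of 4.09 times the limit for brain, 2.32 times for heart and 5.17 times for lung. It was above 2 times the limit in all 3 organs at 388 sites (63.0%), and at 92 sites it was 1.5 times or less in at least 1 organ. The lists limit the mutant signal and do not show it to be absent.

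**Figure D4:**
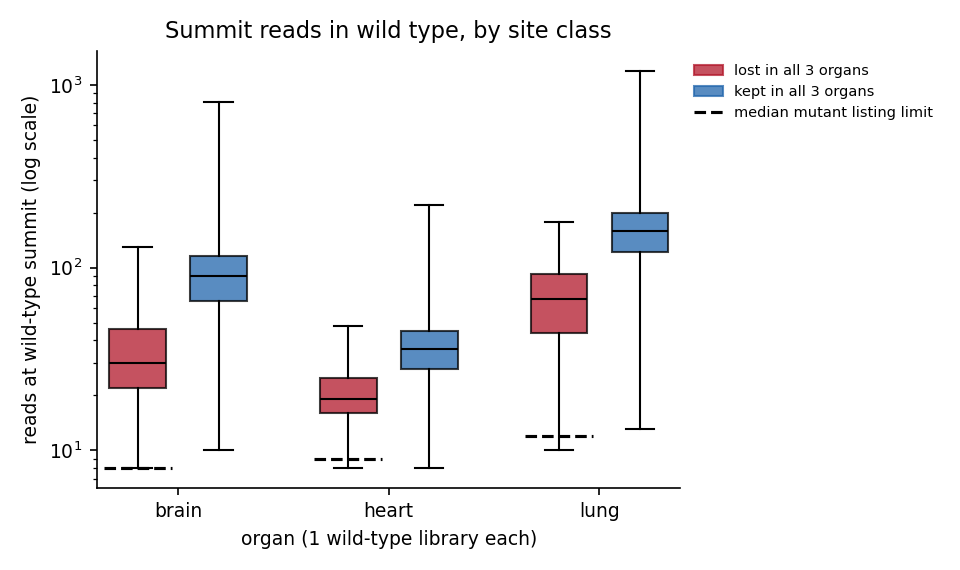
Reads at the wild-type summit (vertical axis, log scale) in brain, heart and lung for sites lost and sites kept in all 3 organs. Boxes show quartiles and median, whiskers the lowest and highest site, and dashed lines the median number of reads at which a mutant peak would have been listed, which lies below the lower quartile of the lost sites in each organ.

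At the edge of the rule, the lost sites of least support rested on few reads. The site nearest Rffl had −log10 q of 1.36 and 8 reads in wild-type brain, and that nearest Gm43592 had 1.40 and 10 reads in wild-type heart. Just outside, the sites nearest Gm43595 and Ephb4 were kept from the set by a lung mutant peak of −log10 q 1.34 with 7 reads, and the one nearest Rab11a by a lung mutant peak of 1.36 with 7 reads.

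The rule excludes any overlap with a mutant region, so the distances below describe only the surroundings of the lost sites. The nearest mutant region of any organ lay at a median of 18019 bp, with a range from 10 to 627877 bp. A mutant region lay within 500 bp of 10 sites (1.62%), within 1000 bp of 31 and within 10000 bp of 219 (35.6%). Sites of the other classes carry a mutant region by definition, so they give no share to set beside these. Any other site with all 3 wild-type lists lay within 10 kb of 20.5% of lost and 36.9% of kept sites.

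Because lost sites were weaker in the wild type, the comparison with kept sites was also standardised to the lost sites' distribution over deciles of mean wild-type fold-enrichment rank. The difference in upstream motif with at most 2 mismatches was then 27.6 points (23.0 to 32.1). The difference in mean core score was −2.38 (−2.77 to −1.98), against −4.38 (−4.73 to −4.04) before standardisation. After standardisation the core motif share differed by −7.49 points (−10.3 to −4.65). The weighting also changed other traits of the kept sites, whose promoter share was 39.8% after it and 22.1% before. Against sites with another partial loss, the standardised upstream motif difference was 6.91 points (1.88 to 11.9).

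Lost sites were found at promoters less often than kept sites. The summit lay within 1 kb of a transcription start site at 47 sites (7.63%, 5.79 to 10.00) and at 22.1% of kept sites, a difference of −14.4 points (−16.4 to −11.9) that was −32.2 points after standardisation. Sites with another partial loss were closer, at 10.4%, with a difference of −2.77 points whose interval of −5.33 to 0.0504 included 0, and of −3.52 points (−6.26 to −0.793) after standardisation. For promoters of protein-coding genes alone this difference was −2.90 points (−4.73 to −0.825). Introns held 256 lost sites (41.6%, against 36.9% of kept sites, 43.5% of those lost in heart only and 42.2% of those with another partial loss). Exons held 29 (4.71%, against 4.91%, 5.73% and 4.94%), and intergenic sequence 284 (46.1%, against 36.2% of kept sites and 42.4% of those with another partial loss). The median distance to a protein-coding start site was 30827 bp, against 14031.5 bp for kept sites and 24073 bp for those with another partial loss, and 144 lost sites (23.4%, against 8.27% of kept sites) lay over 100 kb from one. GC content within 100 bp of the summit was 47.6% ± 6.96 (SD, 616 sites) against 52.1% ± 9.57 (SD, 10442 sites), a difference of −4.54 points (−5.12 to −3.96), and 48.5% ± 7.60 (SD, 1317 sites) with another partial loss.

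Distances between sites were also measured. Another lost site lay within 100 kb of 36 sites (5.84%) and within 10 kb of 4 (0.649%, beside 0.833% of kept sites), while a lost site lay within 100 kb of 6.99% of kept sites, 6.24% of those lost in heart only and 6.91% of those with another partial loss. Any other site with all 3 wild-type lists lay within 100 kb of 468 lost sites (76.0%) and of 91.9% of kept sites. By chromosome, leaving out Y with a single such site, the share that was lost ranged from 2.23% on chromosome 15 (19 of 851) to 5.46% on chromosome 14 (42 of 769) and 5.94% on the X chromosome (19 of 320, interval 3.83 to 9.09).

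Repeat-masked sequence, marked in lower case in the reference, held the core at 115 of 541 lost sites (21.3%, 18.02 to 24.9) and at 4.99% of kept sites. It did so at 11.9% of cores lost in heart only and at 17.97% of those with another partial loss, from which the lost sites differed by 3.28 points (−0.661 to 7.46). The difference from kept sites was 16.3 points (13.0005 to 19.9), and 15.2 points (11.6 to 18.9) after standardisation for wild-type strength. Near-identical copies were found by comparing the 79 bases around each core. A copy differing at no more than 15 positions existed among the other core-bearing sites for 43 lost sites (7.95%, 5.95 to 10.5) and for 1.23% of kept sites, 3.44% of those lost in heart only and 5.72% of those with another partial loss.

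The group of copies with most lost sites was singled out after its values were seen and is given as a description. It held 33 sites, of which 10 were lost in all 3 organs (30.3%, 17.4 to 47.3), beside 3.15% of all sites with the 3 wild-type lists. Another 7 were kept in all organs, 6 were lost in heart only and 10 showed other partial loss. No site of the group had an upstream match of at most 2 mismatches. Lost and kept copies are shown with the core in capitals.
Lost copy nearest Mucl1, chr15:103767002-103767050, plus strand: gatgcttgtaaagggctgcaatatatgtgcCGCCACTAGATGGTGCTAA
Lost copy nearest Gm25019, chr6:133206374-133206422, minus strand: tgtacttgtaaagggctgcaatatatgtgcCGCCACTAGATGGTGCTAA
Kept copy nearest 9430060I03Rik, chr1:92956791-92956839, plus strand: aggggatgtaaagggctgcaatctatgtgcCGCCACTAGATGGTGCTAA
Kept copy nearest Ltb4r2, chr14:55760340-55760388, minus strand: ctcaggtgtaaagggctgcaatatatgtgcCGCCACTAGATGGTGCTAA

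The 19 bases of the core were the same in 28 of the 33 copies, with a score of 17.1. These were 7 of the 10 lost, 7 of the 7 kept and 6 of the 6 lost in heart only, and 8 of the 10 with another partial loss. At the lost copy nearest Mucl1 the wild-type summits held 103, 30 and 156 reads in brain, heart and lung, and at the one nearest Gm25019 they held 92, 21 and 136. The kept copy nearest 9430060I03Rik held 120, 48 and 186 wild-type reads and 121, 41 and 179 mutant reads, and the one nearest Ltb4r2 held 120, 50 and 198 and then 122, 35 and 178. The kept copy nearest H60b held 94, 27 and 135 wild-type reads and 21, 20 and 103 mutant reads. Mean wild-type percentile had a median of 50.4 in the lost copies and 78.1 in the kept ones, with ranges of 37.1 to 79.6 and 66.9 to 89.0 that overlapped. Reads were required to map uniquely, and how far this affected near-identical copies was not tested.

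The 15 lost sites of highest combined wild-type rank included the Map3k1 site, in an intron of the gene of a MAP kinase kinase kinase, with 115 brain, 44 heart and 175 lung reads. The site 3157 bp from the start of Igfbp5, which encodes a secreted binder of insulin-like growth factors, held 76, 40 and 122 reads. It had no core call, and its best match scored 5.86. The intronic site in Vti1a, a SNARE protein gene, held 78, 28 and 90 reads and had the poorest core score of the 15, −2.36.

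The site 2647 bp from Nhlrc1, the gene of the ubiquitin ligase malin, held 81, 39 and 172 reads, and a mutant region was listed 2092 bp away. The intergenic site 11051 bp from Plg, the plasminogen gene, held 67, 30 and 112 reads. The site 63821 bp from Oprm1, the mu opioid receptor gene, held 79, 34 and 124 reads, with no mutant region within 190329 bp. In Nek10, a kinase gene, the intronic site held 54, 41 and 135 reads. In each of these sites the heart value was the lowest of the 3 organs and the lung value the highest, and these libraries differ in depth and enrichment.

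Of the 8 strongest sites with both motif parts, Gm13345 was also among the 15 strongest of all. It held 96 reads in brain, 29 in heart and 145 in lung. In the intron of Pld1, which encodes a phospholipase D, the values were 82, 29 and 108. The site 37162 bp from Polr2m, a gene of an RNA polymerase II associated subunit, held 34, 44 and 131 reads, the only one of the 8 with more reads in heart than in brain. The intronic site in Nol10, a nucleolar protein gene, held 45, 24 and 107.

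At promoters, 20 lost sites lay within 1 kb of a protein-coding start site (3.25%, against 17.9% of kept sites). The 12 strongest of them are described here. The first lay 28 bp from the start of Rasl2-9, a Ran-related GTPase gene, with 78, 33 and 178 reads in brain, heart and lung. At Slc22a7, an organic anion transporter gene, the summit was 717 bp from the start and held 29, 32 and 112 reads. At Chrdl2, the gene of a secreted antagonist of bone morphogenetic proteins, it was 81 bp away and held 65, 31 and 160.

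The promoter sites near the zinc-finger genes Zfp949 and Zfp444 and near Arhgap9, which encodes a GTPase-activating protein, each had an upstream match of at most 1 mismatch at a gap of 6. The Zfp444 site had no core call, so its gap was counted from a best match of score 6.54. Brain, heart and lung reads were 31, 19 and 79 at Zfp949, 38, 17 and 75 at Zfp444, and 20, 15 and 67 at Arhgap9. At Uqcrh, which encodes a subunit of respiratory complex III, the site held 32, 20 and 54 reads and a mutant region began 10 bp away. The others of these 12 in order of strength lay at Msl3l2, Lrp2bp, Tbc1d1, Avpr1b and Mgll, with lung values of 173, 54, 35, 36 and 37 reads. Among the 12, the lowest brain and heart values stood at Avpr1b, a vasopressin receptor gene, with 12 and 11 reads, and the lowest lung value at Tbc1d1.

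Lost sites were assigned to the nearest protein-coding gene within 100 kb, which is a statement of distance alone. Of 10230 genes with an assigned site of all 3 wild-type lists, 464 (4.54%) had a lost one. In axon guidance and synaptic adhesion the count was 3 of 55 genes, in neurodevelopmental transcription factors 1 of 35, in cardiac transcription factors and sarcomere genes 1 of 33, in lung development genes 1 of 36 and in signalling ligands and receptors 4 of 71. It was 0 of 12 clustered protocadherins, 0 of 16 Hox genes, 0 of 20 imprinted genes and 0 of 10 genes of CTCF and cohesin. The protocadherin list held 56 genes, so most had no assigned site that could be counted as lost. The study's methods describe CTCF binding at most of these promoters as weak and hardly found by default peak calling. The 0 therefore does not show that binding was kept there. No list was tested against all genes.

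Among neural genes, Nrxn3, which encodes the synaptic adhesion protein neurexin 3, held 2 lost sites in its introns. Their brain, heart and lung summits had 59, 27 and 93 reads and 36, 18 and 40 reads. In Sema3a, the gene of a repulsive axon guidance cue, the intronic site held 44, 23 and 61 reads and an upstream match 7 bases from the core. The Lhx2 assignment, to a LIM homeobox factor of the forebrain, rested on a site 27784 bp from its start with 26, 19 and 54 reads.

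Among lung development genes, a site 4211 bp from Foxp2, a forkhead factor expressed in lung epithelium and in neurons, held 53, 19 and 59 reads in brain, heart and lung. It had no core call, with a best score of 1.04, and an upstream match of at most 1 mismatch at 6 bases. Of the signalling genes, the site 6537 bp from Wnt9a had a complete upstream match at 6 bases beside a core of score 18.7 and held 36, 17 and 89 reads. That 3913 bp from Wnt1 had 1 mismatch at the same gap and held 26, 20 and 31 reads, and the one in an intron of Fgf14 held 44, 16 and 28 reads. Both Wnt genes encode secreted ligands, and each lost site lay in intergenic sequence.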

How the data were processed

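Trim Galore was used by the authors to remove adapters and Bowtie2 2.2.5 to map reads to mixed mouse (mm10) and human (hg38) genomes. They discarded reads without a unique, high-quality position and called peaks per library with MACS2 2.2.7.1 at default options. Human HEK293T chromatin was added as a spike-in, but its scale factors do not enter peak lists. Which library served as control is not given in the sources used here. In the deposited lists, fold enrichment is a ratio, the summit pileup plus 1 over local background plus 1. Significance (p and q) is deposited on the −log10 scale, and the deposited summit offset is in bp.

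The whole-number pileup that solves fold enrichment and p together was found for 100% of lines in every list. Pileup recovery, the rate of core calls in random sequence and the finding of planted core and upstream matches were checked on simulated data. The planted cores were drawn from the learned core matrix, so the matrix itself was not checked in this way. Lines of the same region were counted once. Regions were merged with bedtools 2.31.1, and sequence was read from GRCm38, in which all regions fitted. Genes were from GENCODE M21 basic. The core matrix had 19 columns learned from the 2000 strongest wild-type brain peaks (1980 contributed), called at p of 0.0001 within 100 bp of the brain summit, on both strands. At that threshold a core was also called at 10.1% and 10.2% of windows 1100 bp to the left and right of lost sites. For kept sites the same windows gave 15.4% and 14.7%. The upstream consensus TGCAGTNCC was sought on the same strand, N being any base.

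Sites with a wild-type list in every organ were classed by their mutant lists. Shares have Wilson and differences Newcombe 95% intervals. No test was made between genotypes, since there was 1 library per organ and genotype. Named sites were the 15 of smallest rank sum, the 8 strongest with core and upstream motif, the 12 strongest at protein-coding promoters and up to 3 per gene list. The Wnt1 site was described outside this rule. Also named were examples without an upstream match, without a core call, among kept sites, among copies and at the edge of the rule. Some named sites are not reported here. Members, lists and rules were chosen with earlier results of these data known. The alternatives tried were a stricter peak threshold (−log10 q of 5 or more), looser or summit-based overlap, brain and lung only, autosomes only, other motif thresholds, matrix and summit, a promoter distance of 2 kb and standardisation for strength. The other matrix came from the strongest mutant brain peaks, a list that holds no lost site by the rule. Scripts ran in Python 3.11.15 with scipy 1.17.1, pysam 0.24.0 and pandas 2.3.3.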

Additional observations from a re-analysis of the deposited data

How the results depend on the processing

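Of 71 recomputed values, 6 moved. All 36 differences between lost and kept sites kept their direction with an interval clear of 0, although some changed in size. After standardisation the promoter share difference was −32.2 in place of −14.4 points. The difference in mean core score was then −2.38 in place of −4.38. In brain and lung only, the core score difference was −2.55 in place of −4.66. Applying the rule to brain and lung only gave 2783 lost sites in place of 616, with an upstream motif difference of 17.0 points. Only 388 lost sites were over 2 times the mutant listing limit in all 3 organs, an alternative added after the data were seen, and among them the upstream motif share was 45.9%. A core motif p of 1e-05 called the core at 60.4% of lost sites. The upstream share was 23.5% with at most 1 mismatch and 27.9% with at most 2 mismatches at a gap of 6 bp only. A promoter distance of 2 kb gave a promoter share of 12.5%. Leaving out sites with a near-identical copy, also added later, gave a repeat-masked core difference of 13.3 points. The upstream motif difference ranged from 16.9 to 30.8 points over its alternatives. No paired analysis was possible because no replicate numbers are given and the sites were defined by the wild-type against mutant contrast of all 3 organs, which left no value of that contrast to test across organs. Peak lists hold no signal below the calling threshold, so a weak mutant peak and no binding cannot be told apart.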
